A study of Homo sapiens with 12 samples.

Results

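FABP1, ALPI, TFF3, AGR2, CDX2 and VIL1 are 6 genes of absorptive, goblet and general intestinal identity. They were followed by gene symbol through SW480, an established line of human colon adenocarcinoma cells. All 6 were among the 13583 genes listed in the overexpression table and 5 were among the 13554 genes listed in the knockdown table, where FABP1 was not listed. The study made 4 stably transfected SW480 lines. A line with raised GPD1L (OE) was set against a line with the vector (Vector), and a line with a short hairpin against GPD1L (shGPD1L) against a line with a control hairpin (shNC). GPD1L encodes glycerol-3-phosphate dehydrogenase 1-like. Each group had 3 libraries, 12 in all, and each change of GPD1L was made in a single line, so effects of the line or of the hairpin cannot be told apart from those of the GPD1L level. The labels do not name the vector, its promoter or the number of clones. Nor do they say whether the 3 libraries of a line were grown apart, so each p-value speaks only of the spread among these samples, which may be technical.

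In the intestine, absorptive cells and mucus-secreting goblet cells both arise from crypt stem cells and acquire their products as they move up the crypt. CDX2 is the homeobox factor that gives and keeps intestinal identity. Villin, the product of VIL1, bundles the actin core of brush border microvilli, the alkaline phosphatase ALPI sits on that membrane, and FABP1 carries fatty acids inside absorptive cells. Goblet cells release the trefoil peptide TFF3 and use AGR2, a protein disulfide isomerase of the endoplasmic reticulum, to make mucins. Colon carcinoma lines keep these programmes to varying degrees.

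The genes lie at separate loci of GRCh38, 3 of them on chromosome 2, and all are protein coding. FABP1 (ENSG00000163586) spans chr2:88122982-88128116 on the minus strand, VIL1 (ENSG00000127831) chr2:218419092-218453295 on the plus strand and ALPI (ENSG00000163295) chr2:232456123-232460032 on the plus strand. AGR2 (ENSG00000106541) spans chr7:16791811-16833433, CDX2 (ENSG00000165556) chr13:27962137-27971139 and TFF3 (ENSG00000160180) chr21:42311667-42315651, all on the minus strand. RefSeq promoters (GRCh38.p14, 250 bases before to 50 bases after a start) were matched for 4 of the 6 genes. None was matched for TFF3 or VIL1. The AGR2 window lies within the gene span given above and not at its 5′ end. The windows are shown because all 6 genes were called lower in OE. In addition, CDX2 encodes a DNA-binding factor whose core motif can be looked for in the other windows. Capitals mark that core, TTTAT or its reverse complement ATAAA, in sequences written 5′ to 3′ along the gene.
FABP1, chr2:88128013-88128312, minus strand: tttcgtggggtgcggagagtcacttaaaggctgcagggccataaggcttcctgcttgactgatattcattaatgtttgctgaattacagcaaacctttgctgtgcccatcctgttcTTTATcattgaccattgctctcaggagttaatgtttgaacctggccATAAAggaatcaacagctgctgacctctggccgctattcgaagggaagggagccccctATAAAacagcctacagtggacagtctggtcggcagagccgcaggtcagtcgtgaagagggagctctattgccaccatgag
AGR2, chr7:16804950-16805249, minus strand: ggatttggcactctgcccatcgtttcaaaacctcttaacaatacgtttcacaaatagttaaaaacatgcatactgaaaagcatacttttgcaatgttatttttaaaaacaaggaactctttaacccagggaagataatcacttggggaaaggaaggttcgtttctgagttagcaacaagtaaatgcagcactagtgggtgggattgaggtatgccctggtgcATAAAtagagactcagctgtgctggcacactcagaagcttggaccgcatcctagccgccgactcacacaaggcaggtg
CDX2, chr13:27969266-27969565, minus strand: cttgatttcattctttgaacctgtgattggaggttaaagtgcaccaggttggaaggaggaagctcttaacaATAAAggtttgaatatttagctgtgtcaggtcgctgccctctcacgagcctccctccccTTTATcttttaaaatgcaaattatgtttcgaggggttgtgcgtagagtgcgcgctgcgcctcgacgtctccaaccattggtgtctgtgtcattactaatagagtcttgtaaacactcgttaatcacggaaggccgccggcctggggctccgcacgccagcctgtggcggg
ALPI, chr2:232455903-232456202, plus strand: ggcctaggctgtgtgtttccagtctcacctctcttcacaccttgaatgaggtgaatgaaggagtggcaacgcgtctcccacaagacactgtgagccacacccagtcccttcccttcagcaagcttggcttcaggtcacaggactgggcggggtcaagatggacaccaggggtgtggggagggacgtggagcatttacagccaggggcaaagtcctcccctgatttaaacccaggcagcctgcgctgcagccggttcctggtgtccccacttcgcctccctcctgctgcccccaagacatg

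The core TTTAT was searched on both strands. It occurred 3 times in the FABP1 window, 2 times in that of CDX2 and 1 time in that of AGR2, and it was absent from the ALPI window. It was also found in 34.9% of 35116 RefSeq promoters of the same length of the same table. That share was not matched for base composition, and the core holds only A and T. Median GC content over all promoters was 58.7%. The windows of FABP1, AGR2 and CDX2 had 50%, 43.7% and 50.3%, and that of ALPI 59.7%. The FABP1 copy nearest the start overlaps the TATA box letters TATAAA, which were found in 11.5% of all promoters and in none of the other 3 windows. The GATA letters AGATAA stood in the AGR2 and CDX2 windows (10.3% of all promoters), and the HNF4 letters CAAAGTCCA in none of the 4 (0.384%). These matches describe the letters only.

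Values are the authors' FPKM, in which fragment numbers are divided by transcript length and library size, so levels of different genes can be set beside each other per length. Library sums of the listed values ran between 421714 and 444794 FPKM, and sequencing depth is unknown. GPD1L was at 22.4 ± 0.366 FPKM in OE and 10.7 ± 0.449 FPKM in Vector, and at 1.68 ± 0.494 FPKM in shGPD1L and 8.60 ± 0.550 FPKM in shNC (SD, n = 3 each), in the direction of its labels. Colon epithelial markers were abundant. The 9 listed of 10 summed to between 4320 and 4453 FPKM in OE and between 3982 and 4094 FPKM in Vector, and the 8 listed in the knockdown table to between 4306 and 4543 FPKM in shGPD1L and between 5149 and 5520 FPKM in shNC. Of 13 blood, stromal and endothelial markers 2 were listed in each table, and their sum lay between 0.949 and 1.56 FPKM in OE and between 2.26 and 3.00 FPKM in Vector, and between 2.32 and 3.42 FPKM in shGPD1L and between 2.98 and 3.55 FPKM in shNC. The part of this list in the results was not tested. One library stood apart, shGPD1L replicate 3, at 29.1 on the first principal component of its table against values from -12.1 to 0.319 in the other 5. That library also held the most GPD1L of its group, 2.23 FPKM, against 1.55 and 1.26 FPKM in shGPD1L replicates 1 and 2. Knockdown calls of the 5 listed genes and of the gene lists are therefore given with and without it. Changes of single list genes in shGPD1L are given over all libraries.

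The order of levels was the same by group mean in OE, Vector, shGPD1L and shNC. AGR2 was the most abundant of the 6, at 118 ± 2.73 FPKM in OE and 193 ± 3.21 FPKM in Vector, and at 53.6 ± 5.68 FPKM in shGPD1L and 65.9 ± 0.703 FPKM in shNC (SD, n = 3 each). Its mean was above that of 96.8% of the listed genes in OE and 98.2% in Vector. VIL1 came next, then CDX2, ALPI and TFF3, with FABP1 lowest at 0.318 ± 0.263 FPKM in OE and 2.00 ± 0.527 FPKM in Vector (SD, n = 3 each). Neighbours in this order did not overlap between libraries of a group, except that VIL1 (17.9 to 27.6 FPKM) and CDX2 (18.6 to 24.0 FPKM) overlapped in shGPD1L. Libraries of the 2 control lines did not overlap for 4 of the 5 genes listed in both tables. The share of all genes without such overlap was not computed, so this count cannot be called unusual. The ratio of the Vector mean to the shNC mean was 2.93 for AGR2, 1.70 for VIL1, 1.64 for TFF3, 1.44 for ALPI and 1.03 for CDX2, where libraries overlapped. Over 12203 genes the median log2 difference between these lines was -0.0122. These ratios set values of separate tables side by side, whose scaling to each other is not known; they are a description and were not tested.

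**Figure D1:**
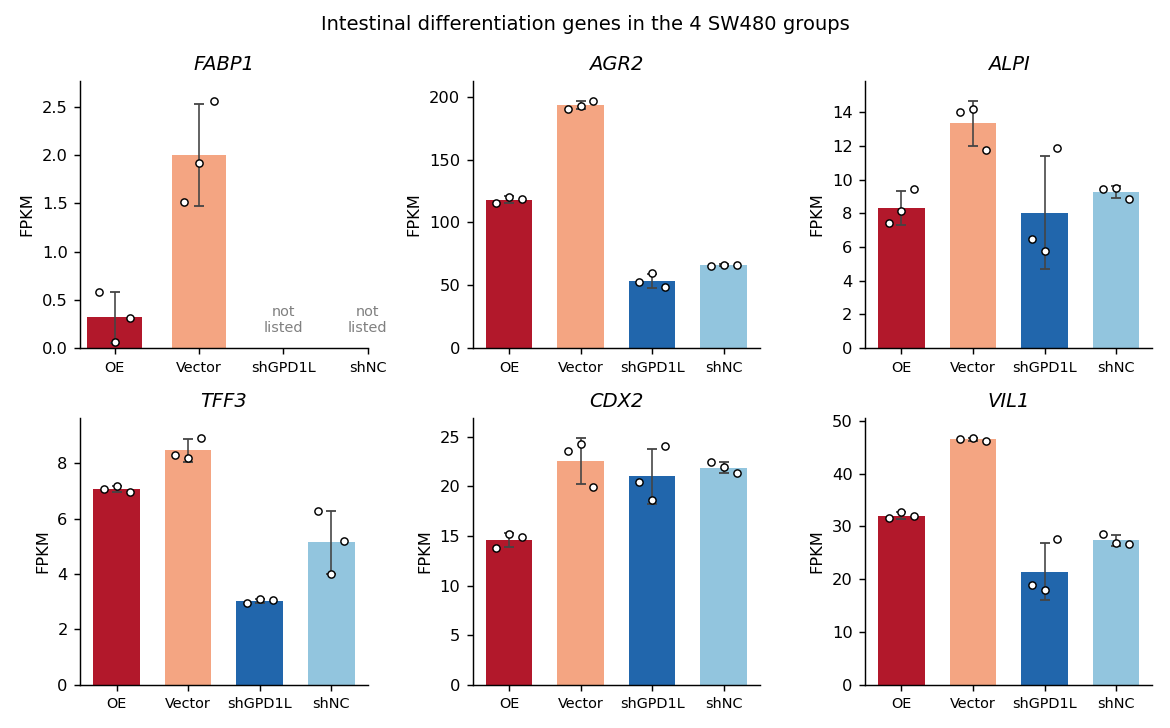
FPKM of each gene in OE, Vector, shGPD1L and shNC, with linear axes that start at 0; bars are means, error bars SDs of 3 libraries and circles single libraries. Every OE library lies below every Vector library for all 6 genes, while shGPD1L replicate 3 lies above the shNC range for ALPI (11.9 FPKM) and CDX2 (24.0 FPKM).

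All 6 genes were called lower when GPD1L was raised. On the log2(FPKM + 1) scale, which understates the change of low genes, the changes ran between -1.19 for FABP1 and -0.23 for TFF3. In the fit over all 12208 tested genes 1256 were called lower, or 10.3%, at an adjusted p under 0.05 (limma with Benjamini-Hochberg adjustment, used for every adjusted p here), and 1484 were called higher, or 12.2%, which makes 22.4% in either direction. The median change of the 6 genes was -0.61, beside 0.024 over all genes tested. FABP1 passed the filter only through Vector, so its call supports no count. The 6 genes and the gene lists below were chosen with earlier results of these data known. The counts of the other 5 genes and of the lists are therefore a description. The median of the 6 genes includes FABP1 and is a description. With the library totals set equal, 2441 genes were higher and 977 lower, and 5 of the 6 genes were called. The libraries are bulk samples, so fewer cells with a product and less RNA per cell cannot be told apart.

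AGR2 was at 115, 121 and 119 FPKM in the OE libraries, against 191, 192 and 197 FPKM in the Vector libraries. The groups were far apart relative to their spread, and AGR2 had the smallest adjusted p of the 6 genes. Its log2 change was -0.70 (SE 0.038, adjusted p = 5.40e-05), with an OE mean 38.8% below the Vector mean. Of the 12208 genes tested, 0.819% had a lower change.

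VIL1 was at 31.5, 32.7 and 31.9 FPKM in the OE libraries and at 46.6, 46.8 and 46.2 FPKM in the Vector libraries. These were the closest replicates among the 6 genes in Vector, with an SD of 0.316 FPKM. The log2 change was -0.52 (SE 0.041, adjusted p = 0.000252), a mean 31.1% lower. VIL1 overlaps the ubiquitin protease gene USP37 on the other strand, which shares 44.0% of its annotated exon bases, and whether reads were counted by strand is not stated. USP37 itself was at 2.98 FPKM in OE and 2.91 FPKM in Vector on average (log2 change 0.026, adjusted p = 0.842).

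ALPI was at 7.43, 8.16 and 9.41 FPKM in the OE libraries, against 14.0, 14.2 and 11.8 FPKM in the Vector libraries. All OE values were lower, with Vector replicate 3 the lowest of its group. Its log2 change was -0.62 (SE 0.097, adjusted p = 0.00422). ALPI has close paralogs beside it in the genome, the placental and germ cell alkaline phosphatases ALPP and ALPG, with which 1.52% of the 50-base windows of its longest transcript are identical, so a small share of reads could be divided with error. ALPG fell to 2.08 ± 0.155 FPKM in OE, against 5.42 ± 0.686 FPKM in Vector (SD, n = 3 each), a log2 change of -1.06. ALPP was at 3.40 ± 0.17 FPKM in OE and 3.45 ± 0.604 FPKM in Vector (adjusted p = 0.954).

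CDX2 was at 13.8, 15.2 and 14.8 FPKM in the OE libraries and at 23.6, 24.3 and 19.9 FPKM in the Vector libraries. Vector replicate 3 was again the lowest of its group, and still above every OE library. The log2 change was -0.59 (SE 0.078, adjusted p = 0.00217), a mean 35.4% lower.

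FABP1 was at 0.585, 0.0587 and 0.311 FPKM in the OE libraries, against 1.52, 1.92 and 2.56 FPKM in the Vector libraries. Its OE values lie near the bottom of the table, with 1.88% of the listed genes lower. The log2 change was -1.19 (SE 0.18, adjusted p = 0.00358), and -2.53 with a pseudocount of 0.1 (adjusted p = 0.00971), so its size rests on the pseudocount. FABP1 passed the minimum mean of 1 FPKM only through Vector, its OE mean being 0.318 FPKM, so it had to differ.

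TFF3 was at 7.06, 7.16 and 6.97 FPKM in the OE libraries and at 8.29, 8.17 and 8.93 FPKM in the Vector libraries. The groups did not overlap, and the difference was the smallest of the 6 genes. Its log2 change was -0.23 (SE 0.060, adjusted p = 0.0288), a mean 16.6% lower. This call ended with equal library totals (adjusted p = 0.0516) and without any 1 of the 6 libraries (adjusted p from 0.0572 to 0.0812). The other 5 genes were called in every alternative in which they were tested. All OE libraries lay below all Vector libraries for each of the 5 genes other than FABP1, a pattern that 17.6% of all genes tested shared. For each gene p was 0.1 in an exact permutation test (two-sided), the smallest that 3 against 3 libraries allow.

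**Figure D2:**
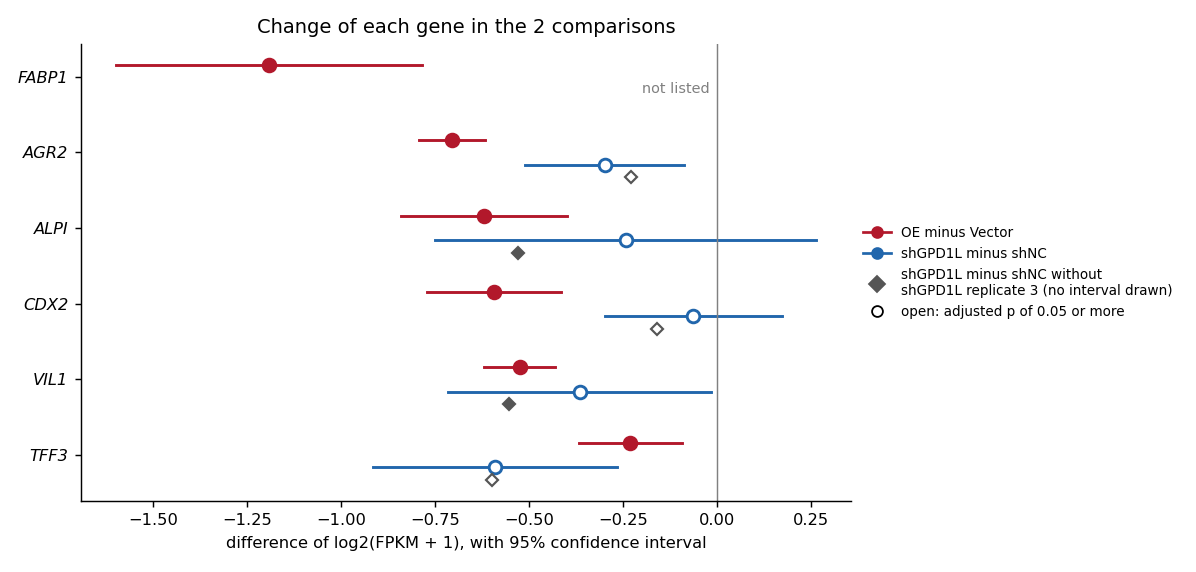
Difference of log2(FPKM + 1) for each gene, OE minus Vector in red and shGPD1L minus shNC in blue, with 95% confidence intervals from limma; grey diamonds leave out shGPD1L replicate 3, and filled symbols have an adjusted p under 0.05. All 6 red symbols are filled, from -1.19 for FABP1 to -0.23 for TFF3, and no blue symbol is.

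None of the 5 listed genes was called when GPD1L was lowered, where 58 of 12156 tested genes were called lower (0.477%) and 14 higher (0.115%), together 0.592%. With quantile normalization those counts were 17 lower and 8 higher. Of the 5 genes 3 had an unadjusted limma p under 0.05, and all 5 changes were below 0, with a median of -0.30 beside -0.036 over all genes tested. An unadjusted limma p of 0.0427, that of VIL1, stood beside an adjusted p of 0.291. The share of all genes with an unadjusted p under 0.05 was not computed. This count and the like counts of the lists below are therefore a description. Among the 1184 genes called lower in OE and tested in the knockdown, 52.2% had a change below 0 in the knockdown.

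The genes parted into those that were low in all shGPD1L libraries and those in which replicate 3 lay within or above the shNC range. TFF3 was at 2.94, 3.08 and 3.08 FPKM in the shGPD1L libraries, against 6.27, 3.98 and 5.19 FPKM in the shNC libraries. The spread was in the controls, and the shGPD1L values were nearly equal. The log2 change was -0.59 (SE 0.14, adjusted p = 0.12), so TFF3 was not called. AGR2 was at 52.9, 59.6 and 48.3 FPKM in shGPD1L and at 65.1, 66.5 and 66.1 FPKM in shNC, with a log2 change of -0.30 (SE 0.092, adjusted p = 0.187). For these 2 of 5 genes all shGPD1L libraries lay below all shNC libraries, as for 15.1% of all genes tested.

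ALPI was at 6.45, 5.76 and 11.9 FPKM in the shGPD1L libraries, against 9.41, 9.50 and 8.83 FPKM in the shNC libraries. Replicates 1 and 2 lay below the shNC range and replicate 3 above it. VIL1 was at 18.8, 17.9 and 27.6 FPKM in shGPD1L and at 28.6, 26.9 and 26.8 FPKM in shNC, so that replicate 3 fell within the control range. CDX2 was at 20.4, 18.6 and 24.0 FPKM in shGPD1L and at 22.4, 21.9 and 21.3 FPKM in shNC, again with replicate 3 highest. Over all libraries the log2 changes were -0.24 (SE 0.22, adjusted p = 0.626) for ALPI, -0.36 (SE 0.15, adjusted p = 0.291) for VIL1 and -0.063 (SE 0.10, adjusted p = 0.801) for CDX2.

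Without shGPD1L replicate 3, ALPI and VIL1 were called lower. There the log2 change of ALPI was -0.53 (adjusted p = 0.0188) and that of VIL1 was -0.55 (adjusted p = 0.0105), 2 of 5 genes beside 3.2% of all genes called lower in that fit and 5% called in either direction. TFF3 stood at -0.60 (adjusted p = 0.0743), AGR2 at -0.23 (adjusted p = 0.105) and CDX2 at -0.16 (adjusted p = 0.218). None of the 5 genes was called without any other single library. Those fits called at most 7 genes lower and at most 1 higher over all genes, so they could hardly have called any of the 5. GPD1L itself was called in 3 of the 6 knockdown fits that left out 1 library. Over all libraries, exact permutation p-values (two-sided) were 0.1 for TFF3 and AGR2, 0.3 for VIL1, 0.4 for ALPI and 0.6 for CDX2.

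**Figure D3:**
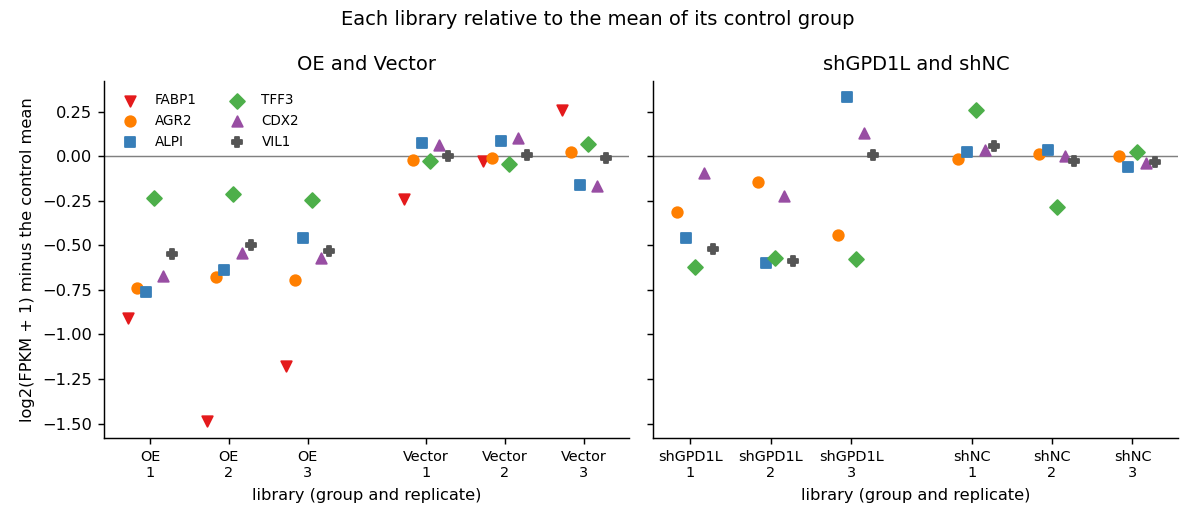
log2(FPKM + 1) of each library minus the mean of its control group, with 1 symbol per gene; the left panel holds OE and Vector and the right panel shGPD1L and shNC. In OE all symbols lie below 0, and in shGPD1L replicate 3 ALPI (0.33) and CDX2 (0.13) lie above 0 while TFF3 (-0.58) and AGR2 (-0.44) lie below it.

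Whether a gene answered differently to the 2 manipulations was tested over all 12 libraries by subtracting the effect of shGPD1L against shNC from that of OE against Vector. AGR2 and CDX2 differed, 2 of 5 genes, where 5% of 11208 genes were called lower, 9.14% higher and 14.1% in either direction. For AGR2 the difference was -0.41 (95% interval -0.62 to -0.19, adjusted p = 0.019) and for CDX2 -0.53 (95% interval -0.82 to -0.24, adjusted p = 0.0228). Both were lower in OE against its control than in shGPD1L against its control. Without shGPD1L replicate 3 both were still called, at -0.48 for AGR2 (adjusted p = 0.0012) and -0.43 for CDX2 (adjusted p = 0.016), beside 9.16% of all genes called lower and 23% called in either direction. The CDX2 call ended without shNC replicate 3, Vector replicate 1, Vector replicate 2 or OE replicate 1 (highest adjusted p = 0.063), and the AGR2 call without OE replicate 1 (adjusted p = 0.0525). The differences were -0.38 for ALPI (95% interval -0.95 to 0.20, adjusted p = 0.374) and -0.16 for VIL1 (95% interval -0.53 to 0.21, adjusted p = 0.566). TFF3 had a difference in the other direction, 0.36 (95% interval 0.023 to 0.70, adjusted p = 0.142), and was called without shNC replicate 2 (0.50, adjusted p = 0.0218). These intervals leave room for unequal responses of ALPI, VIL1 and TFF3. Differences of list genes below are given over all 12 libraries, and not all of these calls were stable. For the list genes picked for naming, the difference call was lost in 107 of 454 alternative fits.

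The pattern of each gene was compared with 11207 others over the 12 libraries, each library taken relative to the mean of its control group. Likeness was the root mean square difference in log2 units, where the median gene lay between 0.358 and 0.439 from these 5 genes. FABP1 was not listed in the knockdown table and has no such measure. SECTM1 was nearest to both VIL1 (0.0753) and ALPI (0.0944). VIL1 and ALPI themselves lay 0.135 apart, the closest pair of the 5, and ALPI and TFF3 lay 0.366 apart, the most distant pair. After SECTM1, VIL1 was followed by SLC7A7 (0.0969) and the adhesion molecule gene CEACAM1 (0.105), and ALPI by FBXO2 (0.103) and the intestinal cadherin gene CDH17 (0.131). AGR2 was nearest to ACSL6 (0.101), the carbonic anhydrase gene CA12 (0.107) and IFITM1 (0.112). CDX2 was nearest to SEMA3G (0.0705), LY6E (0.0843) and PKDCC (0.0860), and TFF3 to FAM32A (0.11), ENC1 (0.113) and the chemokine gene CXCL10 (0.116).

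Some other absorptive genes also fell in OE. Of 32 further genes of this type 7 were listed and 6 tested, and 4 were called lower and 0 higher, with a median log2 change of -0.56. CA2 (log2 change -0.027, adjusted p = 0.706) and MALL (0.20, adjusted p = 0.174), named here after their values were seen, were not called. Over all genes tested 10.3% were called lower and 12.2% higher in OE, shares that stand beside the OE counts of this list and those below. The tetraspanin gene TSPAN1 fell to 15.9 ± 1.74 FPKM in OE, against 27.0 ± 1.58 FPKM in Vector. The brush border peptidase gene DPP4 fell to 13.5 ± 0.559 FPKM in OE, against 21.2 ± 0.596 FPKM in Vector, and the bile acid transporter gene SLC51A to 2.78 ± 0.229 FPKM, against 4.75 ± 0.839 FPKM (SD, n = 3 each). In the knockdown 0 of 6 were called by limma, with 2 at an unadjusted p under 0.05, and 1 was called lower without shGPD1L replicate 3. DPP4 differed between the manipulations, with a log2 change of -0.61 in OE and 0.10 in shGPD1L (difference -0.71, adjusted p = 0.0039).

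Genes that build the brush border beside villin moved in both directions in OE, with 5 of 13 tested called lower and 1 higher (median log2 change -0.20). The myosin genes MYO7B and MYO1A, whose products work at microvilli, had log2 changes of -0.78 and -0.56, and the microvillar protocadherin gene CDHR5 one of -0.41. Ezrin, encoded by EZR, links actin to the membrane. EZR rose to 162 ± 4.38 FPKM in OE, against 142 ± 2.24 FPKM in Vector (SD, n = 3 each; adjusted p = 0.0127), a call that ended without Vector replicate 2. Of the 13 tested in the knockdown 0 were called, with 3 at an unadjusted limma p under 0.05. Without shGPD1L replicate 3, 1 of 12 tested was called lower. The scaffold gene SLC9A3R1 differed between the manipulations, at -0.38 in OE and 0.39 in shGPD1L (difference -0.77, adjusted p = 0.00217), and BAIAP2L1 differed in the other direction (difference 0.34, adjusted p = 0.0271).

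Of 34 further goblet and mucus genes 20 were listed in the overexpression table and 12 tested, and 7 were called lower and 0 higher in OE, with a median log2 change of -0.20. MUC5B, a gel-forming mucin gene, fell to 7.30 ± 0.735 FPKM in OE, against 12.6 ± 0.218 FPKM in Vector (SD, n = 3 each). The sialyltransferase gene ST6GALNAC1 and the GalNAc transferase gene GALNT12, both of mucin-type glycosylation, had log2 changes of -0.65 and -0.48. The colonic mucin gene MUC2 and the goblet cell factor ATOH1 were not listed in either table used here. The number called lower was 4 without Vector replicate 1 or without OE replicate 1. None of the 13 tested in the knockdown was called by limma, with 2 at an unadjusted p under 0.05, and 2 were called lower without shGPD1L replicate 3. The trefoil relative TFF2, a gastric product, fell in OE as well (log2 change -0.60, adjusted p = 0.00217), as did the gastric protease gene CTSE (-0.38) and the gastric mucin gene MUC5AC (-0.38). They belong to 4 gastric markers listed of 10, all 4 of which were called lower in OE and 0 in the knockdown, where 3 had an unadjusted limma p under 0.05. Without shGPD1L replicate 3, 2 of these 4 were called lower in the knockdown. That list summed to between 105 and 107 FPKM in OE and between 134 and 145 FPKM in Vector, and to between 114 and 130 FPKM in shGPD1L and between 151 and 163 FPKM in shNC. Its part in the results was not tested. MUC5AC is counted both here and among the 7 goblet and mucus genes called lower.

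Among 21 other tested transcription factors of the intestinal epithelium 8 were called lower and 1 higher in OE (median log2 change -0.19). The log2 changes were -0.86 for CREB3L3 and -0.70 for CDX1. CDX1, the homeobox relative of CDX2, fell to 14.5 ± 0.479 FPKM in OE, against 24.3 ± 1.98 FPKM in Vector (SD, n = 3 each). PRDM1, which encodes a transcriptional repressor, was called higher (log2 change 0.38, adjusted p = 0.0301). It passed the filter only through OE (1.34 FPKM, against 0.801 FPKM in Vector), so its call supports no count. That call was lost without any 1 of 5 libraries, and PRDM1 was under the filter without OE replicate 2. The number called lower was 5 without Vector replicate 1 or without OE replicate 1. In the knockdown 1 of 20 was called, the epithelial factor ELF3, which fell to 1.52 ± 0.205 FPKM in shGPD1L, against 3.37 ± 0.348 FPKM in shNC (SD, n = 3 each; adjusted p = 0.0374). This call was lost without any shNC library and without shGPD1L replicate 1 or 2, in fits that called at most 7 genes lower over all genes. ELF3 is also 1 of the 8 factors called lower in OE (log2 change -0.47, adjusted p = 0.0322). Its difference between the manipulations was not called (0.32, adjusted p = 0.248). Without shGPD1L replicate 3, 2 factors were called lower. CDX1 differed between the manipulations (-0.70 in OE and 0.023 in shGPD1L, difference -0.73, adjusted p = 0.00477). PRDM1 had a difference in the other direction (0.67, adjusted p = 0.0341). It rests in part on the same OE values that took PRDM1 past the filter, so it is a description.

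Of 14 intestinal genes known to be activated by CDX2, 7 were tested in OE and 5 were called lower, with 0 higher and a median log2 change of -0.50. The median gene, the homeobox factor ISX, named here after its values were seen, averaged 0.878 FPKM in OE and 1.65 FPKM in Vector and passed the filter only through Vector, so neither its call, which is also 1 of the 8 transcription factors above, nor this median is support. The tight junction gene CLDN2 fell to 29.03 ± 0.937 FPKM in OE, against 55.1 ± 2.61 FPKM in Vector. The cadherin gene CDH17 fell to 37.2 ± 1.63 FPKM in OE, against 54.8 ± 1.31 FPKM in Vector (SD, n = 3 each), and CDX1 is counted here as well. In the knockdown 0 of 6 were called by limma, with 3 at an unadjusted p under 0.05, and 3 were called lower without shGPD1L replicate 3. CLDN2 differed between the manipulations, at -0.90 in OE and 0.44 in shGPD1L (difference -1.34, adjusted p = 0.00135). The desmosomal gene DSC2 differed in the other direction (difference 0.53, adjusted p = 0.0239).

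The list of family relatives of the 6 genes shares CDX1, TFF1 and TFF2 with lists above. Of 12 tested in OE 7 were called lower, these shared genes among them, and 0 higher, with a median log2 change of -0.31. Over all genes tested 10.3% were called lower. FABP3, the heart-type fatty acid-binding protein gene, fell to 2.77 ± 0.506 FPKM in OE, against 6.66 ± 0.772 FPKM in Vector (SD, n = 3 each; log2 change -1.03). Its change in shGPD1L was 0.48 (SE 0.33, adjusted p = 0.522) and was not called, with libraries spread from 4.87 to 14.3 FPKM. The difference between the manipulations was -1.50 (adjusted p = 0.0282). Among the 12 tested in the knockdown ALPP was the 1 called, at 7.27 ± 0.825 FPKM in shGPD1L and 12.0 ± 1.04 FPKM in shNC (SD, n = 3 each; log2 change -0.66, adjusted p = 0.0476). That call was lost without any 1 library other than shGPD1L replicate 3, in fits that called at most 7 genes lower over all genes. Without that replicate 4 relatives were called lower. ALPP thus differed between the manipulations (difference 0.65, adjusted p = 0.0169). Of the villin relatives that bind actin, gelsolin's gene GSN had a difference of -0.33 (adjusted p = 0.0329) and the supervillin gene SVIL one of 0.33 (adjusted p = 0.0337).

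**Figure D4:**
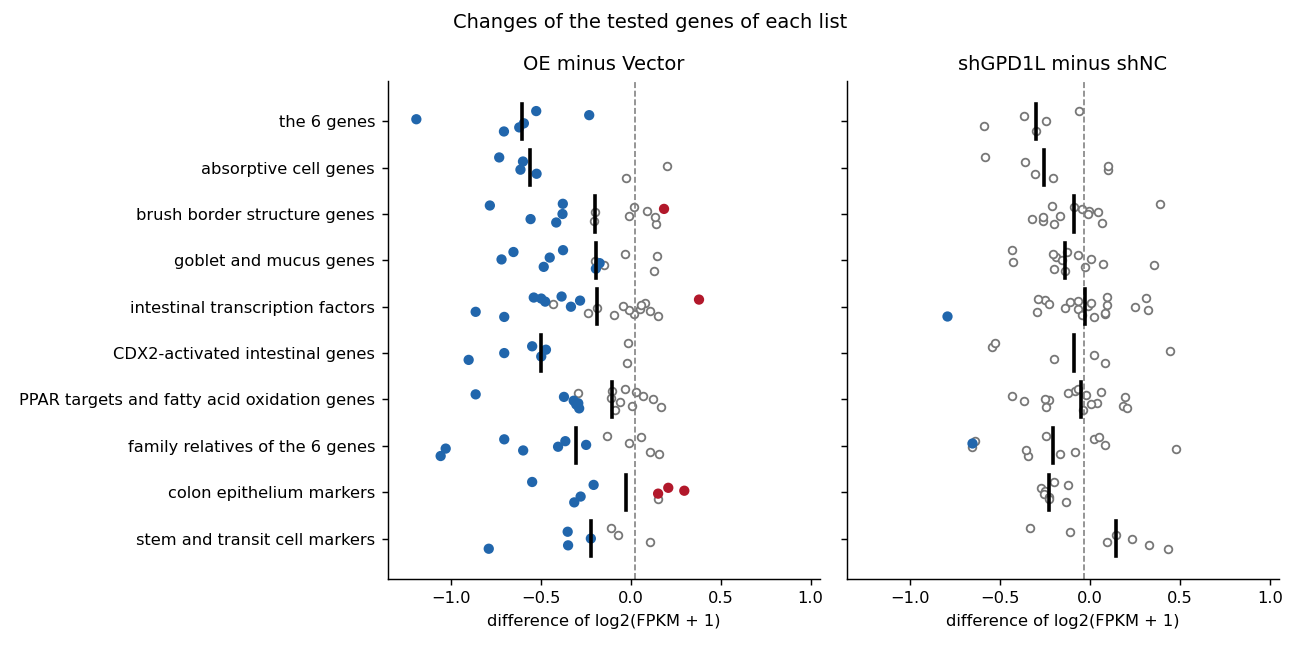
Difference of log2(FPKM + 1) of each tested gene among the 6 genes and 9 lists, OE minus Vector on the left and shGPD1L minus shNC on the right; blue symbols were called lower, red symbols higher, open symbols neither, black bars are list medians and the dashed line is the median of all genes tested. In OE the absorptive genes have a median of -0.56, against 0.024 for all genes, and 4 of their 6 symbols are blue; no symbol of the absorptive genes is filled in the knockdown.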

How the data were processed

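Per the labels' protocols, RNA of SW480 cells was extracted with Trizol, poly(A) RNA was captured and fragmented, and cDNA was primed with random hexamers. The authors deposited 2 tables of FPKM, 1 per comparison. The submitters' processing notes name HISAT2, StringTie, DESeq2 and GRCh38, without roles or versions. Annotation, strand setting and filters: not given in the sources used here. Low values showed no common step between libraries (at most 0.508% of low genes shared a ratio), so depth is unknown and no counting interval is given. Sample titles gave the groups, since the genotype field counts the gene's own number up with the replicate.

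Values were transformed to log2(FPKM + 1). Each comparison was tested within its table, in R 4.3.3 with limma 3.58.1 (trended eBayes, Benjamini-Hochberg adjustment), for genes whose 6 libraries averaged 1 FPKM or more. The difference of effects was fitted over 12 libraries and the genes tested in both tables. Coordinates come from GENCODE release 29, where all annotated identifiers matched; 21 symbols turned into dates were restored by identifier. The members, the 13 gene lists and the tests were chosen with earlier results of these data known. Named are the members, up to 3 higher and 3 lower called genes per list with the largest change, and the 3 genes nearest in pattern to each called member, apart from 2 list genes left unreported. CA2, MALL and ISX were named after their values were seen. Same-numbered libraries did not deviate together, so the numbers were not taken as pairs. Alternatives were pseudocounts of 0.1 and 0.5, no filter or 5 FPKM, 3 scalings, eBayes without trend or robust, a replicate block, and leaving out each library. The fits were tested on simulated data. Figures were drawn with matplotlib 3.10.9.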

Additional observations from a re-analysis of the deposited data

How the results depend on the processing

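The number of the 6 genes called in OE was 4 to 5 without any 1 library and 5 or 6 otherwise; FABP1 was not tested with the filter at 5 FPKM or without Vector replicate 3, where its mean falls under the filter. In the knockdown the number called was 0 in every alternative except without shGPD1L replicate 3 (2). For the difference of effects it was 0 to 3 without any 1 library, against 2 in all libraries, with 1 without shNC replicate 3, Vector replicate 1 or Vector replicate 2, and 0 without OE replicate 1; it was 0 with the replicate block (adjusted p = 0.0664 for AGR2 and 0.0687 for CDX2). Adding that block, the replicate number of the titles, also ended the TFF3 call in OE (adjusted p = 0.062) and changed no other call of these 6 genes in OE or the knockdown; same-numbered libraries correlated at -0.18 to 0.0222 in their deviations. Signs turned for 2 uncalled values; the cause was not tested. Without 1 library, CDX2 in the knockdown lay between -0.16 and 0.017 (without shGPD1L replicate 2) and the VIL1 difference between -0.27 and 0.027 (without shGPD1L replicate 3). Over all genes, calls ranged from 1540 to 3418 in OE (2740 in all libraries), from 0 to 608 in the knockdown (72) and from 483 to 2572 for the difference (1584). The difference had 64.6% of its calls higher, 44.2% with median-of-ratios scaling and 50.2% with quantile normalization. Called lower in OE were 3 to 9 transcription factors (8), 4 to 8 goblet genes (7), 3 to 6 brush border genes (5), 3 to 5 absorptive genes (4) and 2 to 7 PPAR targets and fatty acid oxidation genes (6). Values near 0 FPKM, such as FABP1 in OE, are limited by a depth that is not known.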

Other observations

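General epithelial markers moved in both directions in OE. Of 8 tested colon epithelium markers 4 fell and 3 rose. The simple epithelial keratin genes rose, KRT19 to 851 ± 30.5 FPKM in OE, against 692 ± 7.80 FPKM in Vector, and KRT18 to 1127 ± 24.7 FPKM in OE, against 975 ± 27.7 FPKM in Vector (SD, n = 3 each). KRT8 had a log2 change of 0.15 (adjusted p = 0.0225), a call that was lost without any 1 library other than OE replicate 1 and without the intensity trend. The intestinal cadherin gene CDH17, the epithelial cadherin gene CDH1 (log2 change -0.31) and the galectin gene LGALS4 (-0.28) fell. CDH17 is also counted among the genes activated by CDX2 above. In the knockdown 0 of the 8 were called by limma, with 4 at an unadjusted p under 0.05, and 4 were called lower without shGPD1L replicate 3. The keratin genes differed between the manipulations, with differences of 0.55 for KRT19 (adjusted p = 0.00841), 0.48 for KRT18 (adjusted p = 0.0177) and 0.41 for KRT8 (adjusted p = 0.018).

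Of 7 tested markers of crypt stem and transit cells 4 were called lower and 0 higher in OE. The stem cell factor ASCL2 fell to 1.89 ± 0.487 FPKM in OE, against 4.00 ± 0.913 FPKM in Vector. The Wnt feedback gene AXIN2 fell to 54.1 ± 1.80 FPKM in OE, against 69.3 ± 2.93 FPKM in Vector (SD, n = 3 each), and the ephrin receptor gene EPHB3 had a log2 change of -0.35. In the knockdown 0 of 7 were called by limma, with 2 at an unadjusted p under 0.05, and 2 were called higher without shGPD1L replicate 3. ASCL2 (difference -1.22, adjusted p = 0.0465) and EPHB3 (difference -0.68, adjusted p = 0.00556) differed between the manipulations. Of 17 tested PPAR targets and fatty acid oxidation genes 6 were called lower and 0 higher in OE, with CREB3L3 also counted among the transcription factors above. The number called lower was 3 without Vector replicate 1 or Vector replicate 2 and 2 without OE replicate 3. Among the 6 were the carnitine carrier gene SLC25A20 (log2 change -0.37, adjusted p = 0.0251) and the thiolase gene ACAA2 (-0.32, adjusted p = 0.0186), which kept their calls without 2 and 3 of the 6 libraries. In the knockdown 0 of 16 were called by limma, with 5 at an unadjusted p under 0.05, and 2 were called lower without shGPD1L replicate 3. SLC25A20 (difference -0.57, adjusted p = 0.0408), the acyl-CoA synthetase gene ACSL1 (-0.47, adjusted p = 0.0377) and the dehydrogenase gene ACADVL (-0.34, adjusted p = 0.0281) were lower in OE against its control than in shGPD1L against its control, and the peroxisomal gene EHHADH was higher (0.54, adjusted p = 0.0205). Of 8 Paneth cell markers 1 was listed, PLA2G2A, at 0.779 ± 0.419 FPKM in OE and 2.14 ± 0.584 FPKM in Vector (SD, n = 3 each; adjusted p = 0.0204), a call that ended without Vector replicate 3. The monocyte marker CD14 was at 0.811 ± 0.21 FPKM in OE and 1.81 ± 0.229 FPKM in Vector (SD, n = 3 each; adjusted p = 0.00803). Both passed the filter only through Vector, so their calls are a description. No marker of the enteroendocrine and tuft list reached a mean of 1 FPKM over the 6 libraries of a table, so none was tested.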
